A study of Mus musculus with 18 samples.

Results

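The Hox genes encode homeodomain transcription factors. They were taken here as every gene of the mRNA count table named Hox, a cluster letter from a to d and a number, with antisense names left out. This rule gave 39 of 20275 genes, 11 in the HoxA, 10 in the HoxB, 9 in the HoxC and 9 in the HoxD cluster, and it reads names and no measured value, although the gene family was picked with earlier results of these data known. Their levels were described across single-cell RNA sequencing libraries of mouse bone marrow (BM) made by CITE-Seq, in which oligonucleotide-tagged antibodies are counted in the same cells as mRNA. There were 5 libraries of CD45+ Lineage-Kit+ hematopoietic progenitors (HPs), 2 from embryonic day 16.5 (E16.5) and 1 each from E18.5, the day of birth (P0) and adult mice, and 4 libraries of CD45-Ter119- stromal cells, 1 for each of the same stages. All mice were C57B6/J by label and received no treatment, and the labels give the adults no age.

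Each library was a pool of cells from several mice. Only the E16.5 HPs had a second library, and the sources used here do not say whether its cells came from other mice. For HPs against stroma, and for cell groups of the same libraries, p-values mainly measure how the difference varied across the stages. They do not measure the spread between mice of the same stage. The spread between the E16.5 HP libraries, which may be technical, enters only the comparisons that hold HPs. The study's methods describe a whole skeleton without the head bones for fetal and newborn mice. For adult mice they name the spine, the pelvis and the long bones of the hind limb. Stage and dissected bones therefore cannot be told apart in the adult libraries, which bears on genes that mark body position.

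As background, Hox genes lie in 4 clusters, and the genes of a cluster are numbered by paralogue group from the 3′ to the 5′ end. In the embryo the order along a cluster matches the order in which the genes are used along the head-to-tail axis, and members of the higher groups pattern the limbs and the tail. In blood, members of the HoxA and HoxB clusters are known from stem and progenitor cells and are shut down as cells differentiate, with Meis and Pbx proteins as DNA-binding partners. Skeletal and connective tissue cells are known to keep a Hox pattern of their position of origin.

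The HP libraries held 20982 cells and the stromal libraries 35219, with 13974733 to 194892476 UMIs (unique molecular identifiers, 1 per captured transcript) in a library and 6747 to 23291.5 in its median cell. Under 1000 UMIs were held by 27.5% of cells in the E18.5 HP library, 17.0% in the adult HP library and 10.4% in the P0 stromal library. Of 54831 distinct cell barcodes, 1102 occurred in more than 1 library. The first E16.5 HP library shared 330 barcodes, 58.9% of its cells, with the adult HP library, and the E18.5 and P0 libraries shared 375 and 225 with it, while no pair of stromal libraries shared more than 38. Of 694 adult cells that were the shallower copy of a barcode the median held 549 UMIs, and 7 of them lay in the adult cluster named HSPC. Values with only the deepest cell of each barcode kept are given beside the results on HPs.

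The HoxA cluster lies on the minus strand of chromosome 6. In the mm10 annotation the other clusters lie on plus strands, HoxB on chromosome 11 between 96194316 and 96368256, HoxC on chromosome 15 between 102921103 and 103036852, and HoxD on chromosome 2 between 74668310 and 74765142. The table of RefSeq promoters (GRCm38.p6, 250 bases before and 50 after a start) held 24 entries for 22 of the 39 genes. These entries had a median of 14.5 CpG dinucleotides (4 to 45), against 7 over all 32851 promoters. The letters TGATNNAT, a motif of the PBX-HOX type searched on both strands, occurred in 4 of the 24 entries (16.7%) and in 8.85% of all promoters of that length. A match describes letters only, and it is not a measured binding site.

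The 250 bases before the RefSeq start of 4 genes of the HoxA cluster are printed 5′ to 3′ on the minus strand with CpG in capitals, as examples of members with many and with few or 0 UMIs in HPs. Hoxa10, which lies between Hoxa9 and Hoxa11 and had 673 HP UMIs, has 2 entries in the table and is not printed. Hoxa7 (chr6:52218574-52218823, 7 CpG) and Hoxa9 (chr6:52227371-52227620, 3 CpG) had the most UMIs of all members in HPs, whereas Hoxa11 (chr6:52245811-52246060, 13 CpG) had 4 and Hoxa13 (chr6:52260881-52261130, 35 CpG) had 0 in the same cells. The starts used for Hoxa11 and Hoxa13 are the first base of the gene in the mm10 annotation. Those for Hoxa7 and Hoxa9 lie 3281 and 3719 bases inside the annotated gene, so these stretches overlap the gene and are not upstream of its first annotated base.
Hoxa7: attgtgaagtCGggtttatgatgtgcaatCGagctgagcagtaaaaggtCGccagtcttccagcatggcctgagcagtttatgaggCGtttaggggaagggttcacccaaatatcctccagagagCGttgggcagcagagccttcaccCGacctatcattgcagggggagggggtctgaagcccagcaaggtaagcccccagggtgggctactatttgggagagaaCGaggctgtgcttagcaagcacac
Hoxa9: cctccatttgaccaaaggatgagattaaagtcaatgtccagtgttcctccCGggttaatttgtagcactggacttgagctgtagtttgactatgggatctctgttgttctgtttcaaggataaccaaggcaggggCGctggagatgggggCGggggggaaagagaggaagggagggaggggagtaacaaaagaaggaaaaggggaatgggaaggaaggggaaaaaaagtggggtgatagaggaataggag
Hoxa11: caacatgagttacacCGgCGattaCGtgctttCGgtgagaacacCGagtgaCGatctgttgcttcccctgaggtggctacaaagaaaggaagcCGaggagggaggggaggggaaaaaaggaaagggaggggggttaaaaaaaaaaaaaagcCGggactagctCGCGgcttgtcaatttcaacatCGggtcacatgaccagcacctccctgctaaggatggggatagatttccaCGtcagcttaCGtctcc
Hoxa13: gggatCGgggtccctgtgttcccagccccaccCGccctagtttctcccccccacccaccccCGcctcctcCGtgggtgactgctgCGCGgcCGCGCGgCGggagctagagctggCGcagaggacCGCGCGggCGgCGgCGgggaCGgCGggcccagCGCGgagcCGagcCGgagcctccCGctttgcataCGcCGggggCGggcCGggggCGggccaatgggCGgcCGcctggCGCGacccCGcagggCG

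The first question was how far Hox expression differs between the hematopoietic cells and the stroma of the same marrow. Levels are given as CPM, the UMIs of a gene divided by all UMIs of its library or cell group and scaled to 1000000. The 3′ protocol counts 1 tag per transcript, so CPM was not divided by gene length. In library sums, fewer cells of a type and less RNA per cell cannot be told apart. The 39 genes together had 11.0, 8.21, 71.9, 68.9 and 41.5 CPM in the HP libraries (E16.5 replicates 1 and 2, E18.5, P0, adult; this order is kept throughout) and 320, 341, 297 and 422 CPM in the stromal libraries (E16.5, E18.5, P0, adult). A UMI of any Hox gene was found in 9.64, 8.61, 30.1, 51.3 and 25.4% of HP cells and in 91.9, 91.6, 79.9 and 95.2% of stromal cells, shares that also depend on the UMIs per cell.

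**Figure D1:**
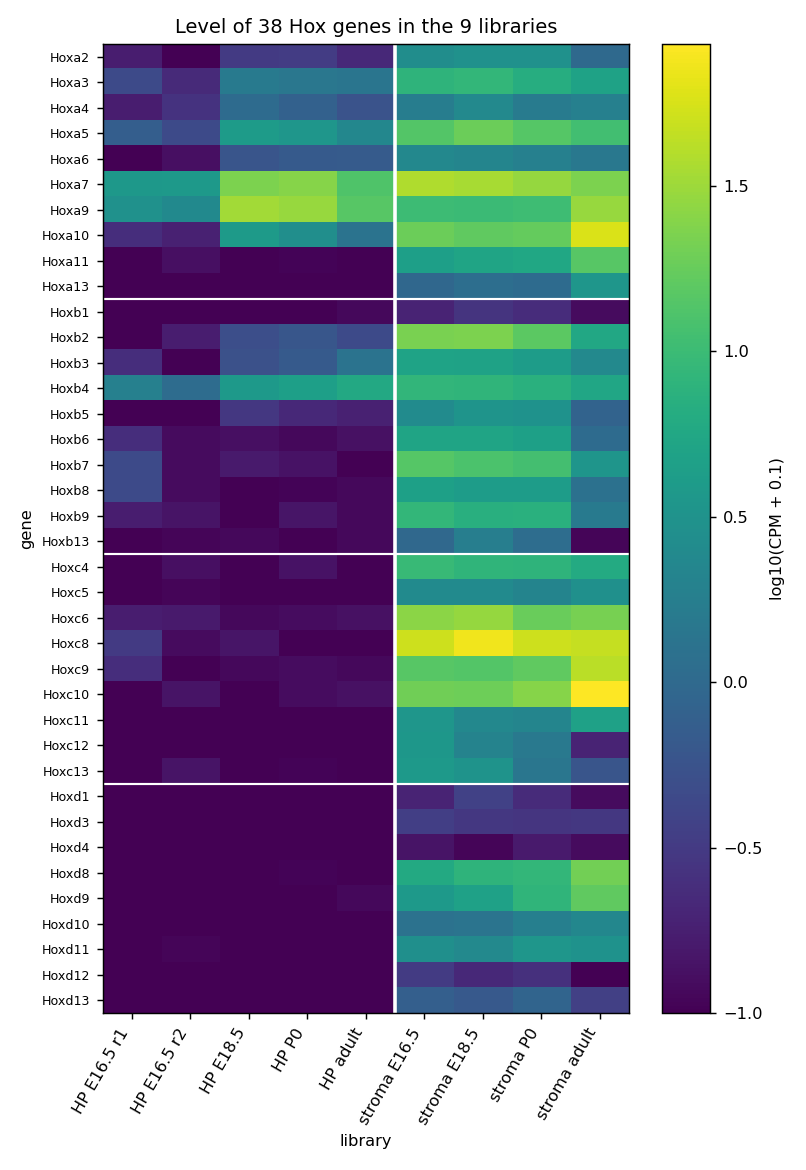
Level of 38 of the 39 Hox genes (rows, ordered by cluster and paralogue group) in the 5 HP and 4 stromal libraries (columns), as the colour of log10(CPM + 0.1); the vertical white line separates HPs from stroma and the horizontal ones the 4 clusters. HP signal is seen in the HoxA rows up to Hoxa10 and in Hoxb2 to Hoxb4. It is near the floor in Hoxa11, Hoxa13 and the HoxC and HoxD rows. The stromal columns hold signal in all 4 clusters, with some values near the floor, such as Hoxb13 in the adult (0.0109 CPM).

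The clusters contributed unequally. In HPs, HoxA genes gave 70.1, 83.1, 93.2, 91.6 and 81.8% of all Hox UMIs and HoxB genes 26.0, 14.2, 6.72, 8.22 and 17.9%. HoxC genes gave 51 and HoxD genes 3 of the HP UMIs. Of the adult library's 5 HoxC UMIs and 1 HoxD UMI, 4 and 1 lay in 56 cells that the authors' code names Stroma, and without those cells HoxA stood at 82.0% there. In stroma, HoxC genes gave the largest share in each library, 41.6, 44.8, 42.2 and 49.7%, followed by HoxA with 31.5, 30.004, 30.7 and 35.4%. HoxB gave 22.3, 20.1, 19.4 and 4.93% of the stromal Hox UMIs, and HoxD 4.61, 5.08, 7.75 and 9.97%.

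**Figure D2:**
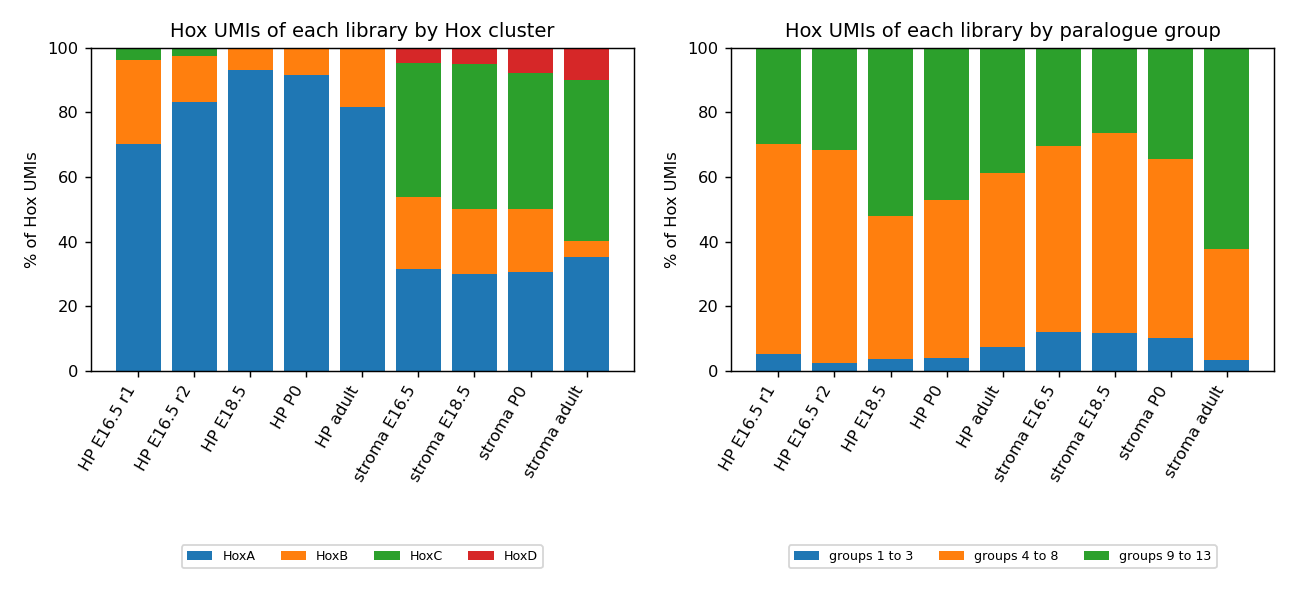
Share of all Hox UMIs in each of the 9 libraries (bars, %) from the 4 clusters (left) and from paralogue groups 1 to 3, 4 to 8 and 9 to 13 (right). HoxA fills 70.1 to 93.2% of the HP bars, HoxC 41.6 to 49.7% of the stromal bars, and groups 9 to 13 reach 62.2% in the adult stroma.

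Among the 39 genes 38 could be tested, and 36 were lower in HPs than in stroma (edgeR quasi-likelihood test on library sums with stage as a term, Benjamini-Hochberg adjustment over all genes), where 32% of 18407 genes were lower. The filter on low counts let 26 of the 38 in through the stromal sums alone, and these 26, which had to be lower, were called lower. Of the other 12, 10 were lower, with a median difference (log2) of -3.14, against -0.05 over all genes tested. There were 36 as well when only the deepest cell of each shared barcode was kept. Leaving out 1 library at a time gave 30 to 37. Hoxd4, with 20 UMIs in all, was not tested.

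Hoxc8 had the highest stromal level of all members before adulthood, and Hoxc10 in the adult. Hoxc8, which patterns the thorax, had 50.4, 73.0, 51.1 and 47.0 CPM in stroma and 0.215, 0.0209, 0.0463, 0 and 0 CPM in HPs. The HP level rested on 8 UMIs. Hoxc6 had 26.2, 28.9, 18.3 and 21.2 CPM in stroma and at most 0.0716 CPM in HPs. Hoxc10, of the hindlimb and lumbosacral level, had 19.4, 19.1, 24.9 and 84.9 CPM in stroma and at most 0.0417 CPM in HPs. Every stromal library was above every HP library for these genes.

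Of the 5′ members, which are known from the distal limb and the tail, several were at 0 in HPs. Hoxa13, Hoxc11, Hoxc12, Hoxd10, Hoxd12 and Hoxd13 had 0 UMIs in all 5 HP libraries, whereas Hoxb13 had 3 and Hoxc13 had 5. The 3′ members Hoxd1, Hoxd3 and Hoxd4 were at 0 as well, and Hoxb1 and Hoxc5 had 1 UMI each. With 3 counts over the HP libraries as the limit that a count of 0 allows, stroma was at least 167-fold higher for Hoxa13, 342-fold for Hoxc11, 212-fold for Hoxc12, 192-fold for Hoxd10 and 73.7-fold for Hoxd13. Hoxa11, a gene of the middle limb segment, had 4 HP UMIs and 4.45, 5.01, 5.50 and 14.8 CPM in stroma. Hoxd8 and Hoxd9 had 1 HP UMI each, and the ratios of stroma to HPs were 3561 (95% counting interval 639 to 140694) and 2818 (505 to 111327). Intervals of this kind cover counting error only.

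A few members made up most of the HP signal, led by Hoxa9 with 7087 and Hoxa7 with 5776 UMIs. Groups 9 to 13 gave 29.9, 31.8, 52.1, 47.0 and 38.7% of the HP Hox UMIs. Hoxa9, the best known Hox gene of hematopoietic stem and progenitor cells, had 2.93, 2.35, 33.6, 29.6 and 14.7 CPM in HPs and 10.1, 9.91, 10.4 and 30.2 CPM in stroma. The values of the compartments overlapped, and the difference did not pass the test (log2 difference, HP minus stroma, -0.25 ± 0.65 (SE), adjusted p = 0.765). Hoxb4, which is known for expanding blood stem cells when overexpressed, had 1.79, 0.981, 3.69, 4.35 and 5.69 CPM against 8.36, 8.25, 7.16 and 5.32 CPM, overlapped as well and did not pass (-1.33 ± 0.50, adjusted p = 0.0557). Hoxa7 had 3.51, 3.67, 22.4, 24.6 and 13.3 CPM in HPs and 38.0, 35.3, 29.4 and 22.5 CPM in stroma. It was the call nearest the threshold (-1.54 ± 0.55, adjusted p = 0.0467), its compartments overlapped, and the call was lost in 7 alternatives (-1.88 to -1.21), among them leaving out either E16.5 HP library. Hoxa5 (-3.08 ± 0.55, adjusted p = 0.00318) and Hoxa10 (-4.64 ± 0.94, adjusted p = 0.00533) were lower in HPs, with HP levels of 0.355 to 3.99 and 0.0835 to 3.86 CPM.

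In both E16.5 HP libraries, HoxA levels were below those of the later HP libraries for Hoxa5, Hoxa7, Hoxa9 and Hoxa10, and the 2 E16.5 values lay close together. These libraries also differed from the later ones in which cells they held. Clusters named mast held 259 of 560 and 1804 of 4752 E16.5 cells, and T cell clusters 18 and 2141, where Hoxa9 stood at 0 and 0.245 CPM and at 9.97 and 1.30 CPM. The levels within clusters are given next.

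The next question was which HPs carry the Hox transcripts. Cells of the clusters that the authors named HSPC (hematopoietic stem and progenitor cells; 33, 165, 388, 1505 and 629 cells) were summed per library and compared with the sum of all other HPs of the same library. The clusters had been made on the same counts, so this comparison describes them and is not an independent test of the cell type. Only 12 of the 39 members passed the filter on low counts, and 10 of them were called higher in HSPC clusters, where 4.5% of 14257 genes were higher. Of the 12, 5 passed through the HSPC sums alone (Hoxa2, Hoxa6, Hoxb2, Hoxb3 and Hoxb5) and had to be higher there, so nothing is read from their calls. Values of Hoxb2, Hoxb3 and Hoxb5 are given below without a test. Of the other 7, 5 were higher, and the median log2 difference over these 7 was 2.73, against -0.08 over all genes. With only the deepest cell of a shared barcode there were 10 as well. The count was 5 without the E18.5 or without the P0 library, and 0 without the library as a replicate block. Over all genes the number called higher fell as well, from 642 to 204, 194 and 54.

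Hoxa9 had 34.8, 40.3, 121, 62.0 and 50.3 CPM in HSPC clusters and 0.913, 1.04, 17.6, 19.0 and 11.1 CPM in the other HPs. It was higher in each library, with a log2 difference of 3.01 ± 0.56 (adjusted p = 0.0170). Hoxa7 had 28.8, 42.1, 67.2, 50.9 and 41.7 CPM against 1.90, 2.34, 14.2, 16.0 and 10.5 CPM (2.53 ± 0.38, adjusted p = 0.00971). For both genes every HSPC sum lay above every sum of other HPs.

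Hoxa10, a gene known to promote self-renewal of progenitors, was at lower levels, with 2.40, 1.25, 17.3, 7.11 and 6.24 CPM in HSPC clusters against 0, 0.0432, 1.40, 1.23 and 0.707 CPM (3.32 ± 0.45, adjusted p = 0.00731). The E16.5 values rested on 2 and 4 UMIs. Hoxa5 had 7.19, 2.50, 14.9, 7.97 and 8.81 CPM against 0.228, 0.281, 2.01, 1.84 and 1.51 CPM (2.73 ± 0.34, adjusted p = 0.00563). Hoxa3, of the 3′ part of the cluster, had 2.40, 1.25, 5.79, 3.32 and 6.42 CPM against 0.228, 0.0864, 0.657, 0.718 and 0.763 CPM (2.87 ± 0.31, adjusted p = 0.00407). Hoxa4 did not pass (1.30 ± 0.45, adjusted p = 0.0979).

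The HoxB genes were at low levels. Hoxb2 had 0, 0.624, 1.70, 1.53 and 1.84 CPM in HSPC clusters and 0 to 0.205 CPM in the other HPs, and Hoxb3 had 1.199, 0, 1.70, 1.69 and 4.40 CPM against 0 to 0.874 CPM. Hoxb5, a reporter gene for long-term stem cells in adult marrow, had 33 UMIs over all HPs, with 0, 0, 1.30, 0.383 and 0.551 CPM in HSPC clusters and 0 to 0.0372 CPM in the other HPs. None of the 3 was detected in both E16.5 HSPC sums. Hoxb4 differed in its spread over HPs. It had 2.40, 4.06, 8.08, 8.07 and 6.24 CPM in HSPC clusters and 1.75, 0.874, 2.88, 3.14 and 5.64 CPM outside them, and did not pass (1.07 ± 0.33, adjusted p = 0.0698).

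**Figure D3:**
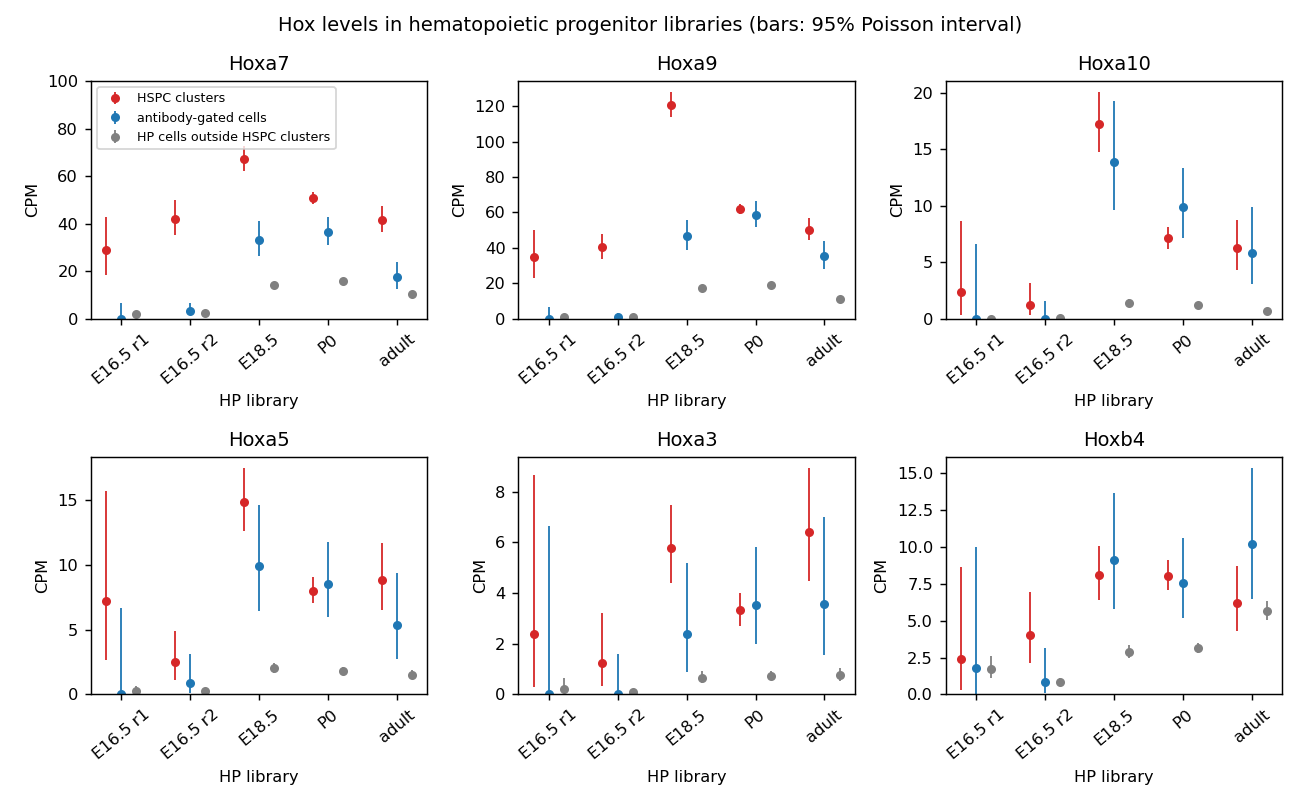
CPM of 6 Hox genes in the 5 HP libraries (x axis) for cells of HSPC clusters (red), cells gated by antibodies (blue) and HPs outside HSPC clusters (grey); bars are exact 95% Poisson intervals and cover counting error only. Hoxa9 reaches 121 CPM in the E18.5 HSPC cluster. The gated cells of both E16.5 libraries are at 0 and 0.864 CPM of Hoxa9 and hold very few UMIs of it.

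The part of free RNA in the Hox levels of HPs was not tested. The share of cells with a Hoxa9 UMI was 36.4, 32.7, 81.2, 62.4 and 33.9% in HSPC clusters (median 20866, 17647, 25053.5, 18719 and 7636 UMIs per cell). It was 0, 0.222, 4.32, 2.25 and 0% in mast cell clusters (25921, 16625, 25714.5, 1498 and 719 UMIs). With every cell thinned to 1000 UMIs the shares were 9.09, 2.42, 13.9, 7.18 and 6.24% in HSPC clusters and 0, 0.0555, 0, 0.348 and 0% in mast cell clusters. Shallower cells were left out, 4 in the adult HSPC cluster and 247 and 252 in the P0 and adult mast cell clusters. In each library the thinned share was higher in HSPC clusters. Many mast cells of the last 2 libraries were the shallower copy of a barcode shared with another library, 211 of 534 at P0 and 263 of 321 in the adult. Without the copies the Hoxa9 share in mast cell clusters was 0, 0.223, 4.38, 3.41 and 0%, and the adult value rested on 58 cells (exact 95% upper limit 6.16%), so it says little about adult mast cells.

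Among the other HP clusters, the P0 cluster named LymP (lymphoid progenitors, 388 cells) had 93.1 CPM of Hoxa9 and 68.0 CPM of Hoxa7, above the P0 HSPC clusters as a whole. Within these, Hoxa9 was at 74.4 CPM in HSPC2, 63.1 CPM in HSPC3 and 32.8 CPM in HSPC4. Myeloid progenitor clusters had 34.05, 19.8 and 14.0 CPM of Hoxa9 at E18.5, P0 and in the adult, and erythroid or megakaryocyte progenitors 10.2, 11.2 and 10.6 CPM. At E18.5 the level differed within the myeloid progenitors, with 47.5 CPM in MyP1 and 19.5 CPM in MyP2. Monocyte clusters of the 3 later stages had 7.87, 22.2 and 14.3 CPM of Hoxa9, and mast cell clusters 0, 0.245, 2.62, 4.87 and 0 CPM over the 5 libraries (0, 0.246, 2.63, 4.80 and 0 CPM without the shallower copies, which were most of the adult mast cells). The markers listed for HSPCs (Kit, Cd34, Mecom, Hlf, Procr, Mllt3, Meis1, Adgrl4 and Egfl7) summed to 34.5 to 114 CPM in the E18.5 monocyte clusters. At P0 they summed to 358 CPM in Mono1 and 657 CPM in Mono2, against 667 CPM in HSPC4, and in the adult to 173 to 401 CPM. The sum is not specific to HSPCs. It includes Kit, on which all HPs were sorted, and it was 1069 CPM in the P0 mast cell cluster Mast3. Hlf alone was at 28.7 and 52.1 CPM in P0 Mono1 and Mono2. In adult Mono4, Mono5 and Mono6 it was at 2.44, 25.0 and 6.41 CPM. The Hoxa9 levels belong to 1 library each and were not tested.

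Because clusters were made on mRNA, the comparison was repeated with a gate that used antibody counts alone. Cells positive for Sca-1 and CD150 and negative for CD135 were taken as HSPCs by surface phenotype, a class that contains long-term stem cells and multipotent progenitors. Positive meant a centered log-ratio (CLR) above 1 for the antibody within its library. The gate held 20, 92, 107, 230 and 237 cells, of which 0, 5, 46, 137 and 43 lay in clusters named HSPC. In the E16.5, E18.5 and adult libraries most gated cells thus lay outside the HSPC clusters.

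The filter on low counts left 9 members, 3 of them through the gated sums alone, and 2 of the other 6 were higher in gated cells, where 1.91% of 13067 genes were higher. The median log2 difference was 0.89 over these 6 and -0.03 over all genes. Hoxa10 had 0, 0, 13.9, 9.89 and 5.79 CPM in gated cells and 0.149, 0.0855, 3.45, 2.43 and 1.04 CPM in the others (1.93 ± 0.32, adjusted p = 0.0192). Hoxa5 had 0, 0.864, 9.90, 8.48 and 5.34 CPM against 0.671, 0.342, 3.75, 3.17 and 2.05 CPM (1.22 ± 0.28, adjusted p = 0.0461). Both genes were higher in the gated cells of the 3 later libraries, while at E16.5 they had 0 or 1 UMI per gate. The count was 2 with only the deepest cell of a shared barcode, 0 to 3 when a library was left out, and 0 at a CLR level of 0.75. Over all genes, 29 to 401 were higher when a library was left out and 89 at that level, against 249.

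Hoxa9 had 0, 0.864, 46.7, 58.7 and 35.2 CPM in gated cells and 3.06, 2.38, 33.1, 28.6 and 13.9 CPM in the others, and did not pass (0.65 ± 0.26, adjusted p = 0.169). The gated value lay above the other cells from E18.5 on. At E16.5 it lay below them, but the gates of 20 and 92 cells held too few Hoxa9 UMIs to order the values. Hoxa7, with 0, 3.45, 33.3, 36.5 and 17.4 CPM, also lay above the other cells from E18.5 on and did not pass either (0.30 ± 0.20, adjusted p = 0.405). Hoxb4 had 1.80, 0.864, 9.11, 7.54 and 10.2 CPM in gated cells, with a difference of 0.76 that did not pass.

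The HSPC clusters of each later stage were set against those of E16.5. Each later stage is 1 library, and the spread comes from the 2 E16.5 sums of 33 and 165 cells alone (1 residual degree of freedom), so the calls compare these libraries and do not show a difference between stages. Of 10 members in the fit, edgeR called 3 higher at E18.5 (0.987% of 12163 genes), 1 at P0 (1.37%) and 0 in the adult (3.59%), with 4 at an unadjusted p under 0.05 in the adult. DESeq2 called 0 of these members at each stage. The 3 called at E18.5 were Hoxa10 (log2 difference 3.48 ± 0.72), Hoxa9 (1.67 ± 0.39) and Hoxa5 (1.94 ± 0.62), and the values for Hoxa7 were 0.88 ± 0.39. For Hoxa10 the difference was 2.27 ± 0.74 at P0 and 2.25 ± 0.78 in the adult. The 3 comparisons share the E16.5 libraries.

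With only the deepest cell of a shared barcode edgeR called 3, 1 and 1. The cluster named HSPC at E16.5 differed from the later ones in markers, though not in all of them. Hlf, a transcription factor of stem cells, had 19.2 and 21.2 CPM at E16.5 and 39.4 to 157 CPM in the later HSPC clusters. Mecom, another such factor, had 0 and 1.87 CPM against 9.16 to 35.1 CPM. Of the other markers listed for HSPCs, Kit, Cd34, Procr and Adgrl4 lay below every later HSPC cluster. Egfl7 (155 and 180 CPM against 137 to 359 CPM), Meis1 (51.5 and 30.3 against 38.8 to 85.4 CPM) and Mllt3 (9.59 and 17.5 against 11.3 to 31.0 CPM) overlapped. The 5 genes of the Mast list summed to 3837 and 4586 CPM in the E16.5 HSPC clusters and to 184, 318 and 323 CPM in those of E18.5, P0 and the adult. The part of these differences in the Hox values was not tested.

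In stroma, fibroblast clusters (2853, 1637, 3867 and 3546 cells) were compared with chondrocyte clusters (4130, 4080, 6077 and 1094 cells). Both classes were read from the authors' cluster codes, which rest on the same counts. The chondrocyte class was meant to take in osteochondro progenitors too, a signature that the paper reports for most perinatal stromal cells. The 5 genes of the Fibroblast list summed to 12036 to 35175 CPM in fibroblast clusters and 1219 to 3819 CPM in chondrocyte clusters, and the 6 genes of the Chondrocyte list to 2559 to 8698 and 32880 to 79835 CPM. Of 37 members tested, 7 were higher in fibroblasts, where 20.4% of 16364 genes were higher, and 1 was lower, where 16.8% were lower. The share of members called was below that of all genes in the lower direction and near it in the higher one. The filter let 2 members in through the fibroblast sums alone, and Hoxd12, 1 of the 7, thus had to be higher. Of the 34 that passed on either side, 6 were higher and 1 lower. The median log2 difference was 0.35 over these 34, 0.40 over all 37 members and 0.02 over all genes.

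Hoxc8 was the member lower in fibroblasts, with 42.5, 49.8, 35.6 and 40.6 CPM against 62.7, 84.6, 65.2 and 66.7 CPM in chondrocytes (-0.96 ± 0.08, adjusted p = 0.00201). The 4 chondrocyte sums lay above the 4 fibroblast sums. Hoxb4 had 15.3, 15.8, 11.4 and 3.09 CPM in fibroblasts and 5.50, 5.19, 4.53 and 0.688 CPM in chondrocytes (1.38 ± 0.17, adjusted p = 0.00486). Hoxb3 had 9.40, 10.4, 6.32 and 1.11 CPM against 2.90, 3.06, 2.75 and 0.164 CPM (1.51 ± 0.26, adjusted p = 0.0112). For these HoxB genes the fibroblast sum was the higher in each of the 4 libraries, although adult values overlapped with earlier ones.

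The other calls higher in fibroblasts were Hoxb2 (0.60 ± 0.16, adjusted p = 0.0374) and 4 members of groups 11 to 13. Hoxc13, a gene of hair and nails, had 9.17, 11.7, 2.51 and 0.675 CPM in fibroblasts against 0.893, 0.595, 0.866 and 0.164 CPM (2.66 ± 0.55, adjusted p = 0.0193). Cluster F6 held 250 of its 326 fibroblast UMIs at E16.5, and cluster F3ii 259 of 289 at E18.5. Hoxb13 (2.27 ± 0.56) and Hoxc11 (1.34 ± 0.38) had adjusted p = 0.0422 and 0.0448. Hoxd12 passed the filter through the fibroblast sums alone, so no fold is given for it. The number of members called was 2 without the E16.5 or without the E18.5 library, 19 without the adult library (14 higher, 5 lower) and 13 with DESeq2. Calls over all genes moved too, from 3341 higher and 2747 lower. They were 1854 and 1282 without the E16.5 library, 1295 and 870 without E18.5, and 5039 and 4461 without the adult.

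Endothelial clusters (71, 94, 223 and 594 cells) were then compared with the fibroblast clusters. The 5 genes of the Endothelial list summed to 2734 to 5211 CPM in endothelial clusters and 12.4 to 25.3 CPM in fibroblasts. The Fibroblast list summed to 899.8, 1521, 2623 and 5112 CPM in the endothelial clusters, and its part in the endothelial Hox values was not tested. Of 35 members tested, 14 were lower in endothelial cells, where 17.2% of 14716 genes were lower, and 4 were higher, where 14.2% were higher. The filter let 3 members in through the fibroblast sums alone, and Hoxc12, 1 of the 14, thus had to be lower. Of the 30 that passed on either side, 13 were lower and 4 higher. The median was -0.43 over these 30, -0.67 over all 35 members and -0.07 over all genes. Without the E18.5 library 11 members were called, 1 higher and 10 lower, where 1464 of 14775 genes were higher and 1686 lower.

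The members lower in endothelial cells included 8 HoxC genes, among them Hoxc12, which had to be lower by the filter. Hoxc8 had 17.2, 6.38, 7.37 and 7.51 CPM in endothelial cells, below every fibroblast value (-2.37 ± 0.29, adjusted p = 0.000455). Hoxc9 had 3.45, 1.06, 3.68 and 10.1 CPM against 19.98, 16.0, 18.8 and 50.7 CPM (-2.71 ± 0.25, adjusted p = 9.89e-05). Hoxc10 had 5.75, 0, 6.96 and 17.1 CPM against 22.3, 17.2, 23.5 and 90.8 CPM (-2.52 ± 0.36, adjusted p = 0.00106). Hoxc8, Hoxc9 and Hoxc10 had 71, 56 and 95 endothelial UMIs in all, so endothelial values of single libraries rest on few counts. Hoxc6, Hoxc4, Hoxc11 and Hoxc13 were lower by 2.42, 1.94, 2.36 and 2.55 on the log2 scale. Hoxc12 had 0 UMIs in all endothelial sums and no fold is given for it.

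In the HoxA cluster, Hoxa10 (-1.85 ± 0.19, adjusted p = 0.000206), Hoxa11 (-2.56 ± 0.38, adjusted p = 0.0014), Hoxa13 (-2.90 ± 0.64, adjusted p = 0.00956) and Hoxa9 (-0.89 ± 0.24, adjusted p = 0.0247) were lower in endothelial cells. In the HoxD cluster these were Hoxd10 (-1.94 ± 0.56) and Hoxd11 (-2.46 ± 0.54). Some of the lower calls were lost in alternatives as well, with the direction kept. This was so in 4 alternatives each for Hoxa9, Hoxc11 and Hoxd10, in 2 each for Hoxa13 and Hoxc13, and in 1 for Hoxc10.

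Higher in endothelial cells were 3 HoxB genes and Hoxd8. Hoxb8 had 16.1, 23.4, 18.4 and 20.9 CPM in endothelial cells and 3.91, 3.53, 3.38 and 0.0871 CPM in fibroblasts (3.25 ± 0.74, adjusted p = 0.0116). Hoxb7 had 13.8, 42.5, 32.3 and 45.5 CPM against 12.9, 10.6, 11.2 and 1.18 CPM (2.13 ± 0.66, adjusted p = 0.0399). Hoxb4 had 19.5, 36.1, 24.2 and 54.5 CPM (1.61 ± 0.51, adjusted p = 0.0445), and Hoxd8 24.1, 45.7, 38.1 and 30.5 CPM against 6.30, 9.97, 10.3 and 29.3 CPM (1.34 ± 0.41, adjusted p = 0.0392). The endothelial sum was the higher in each library for all 4, and for Hoxb8, Hoxb7 and Hoxb4 every endothelial value exceeded every fibroblast value. The calls of Hoxb4 and Hoxd8 were lost in 4 alternatives each and that of Hoxb7 in 3, with the direction kept.

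The adult stroma was set against each earlier stromal library. With 1 adult library there is no test, and a member was counted when its adult level was at least 2 times above or below each of the 3 earlier levels. Of 34 members with at least 200 stromal UMIs, 8 were higher in the adult (13.3% of 14657 genes) and 11 lower (7.26% of all genes). The 8 higher ones were Hoxa9, Hoxa10, Hoxa11, Hoxa13, Hoxc9, Hoxc10, Hoxd8 and Hoxd9. The 11 lower ones were Hoxa2, 7 HoxB genes (Hoxb2, Hoxb5 to Hoxb9 and Hoxb13), Hoxc12, Hoxc13 and Hoxd13. Groups 9 to 13 gave 30.2, 26.4 and 34.5% of stromal Hox UMIs before adulthood and 62.2% in the adult. By Dixon's criterion 10 of 39 sets of values, each 1 member in 1 compartment, had a library far from the others, all in stroma, where the rule marked 15.3% of all genes, against 8.49% in HPs.

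Within a class the adult cells also belonged to other clusters. Fibroblast clusters were F1 to F7 at the earlier stages and F8 to F13 in the adult, chondrocyte clusters C1 to C8 and then C9 to C11, and endothelial cells 1 cluster (ECs) and then AECs and SECs. An adult value of a class therefore compares different clusters, and whether the same kind of cell changed was not tested. In the fibroblast clusters alone, 7 of 32 members were higher (10.6% of 12654 genes) and 15 lower (10.2%). Hoxc10 had 22.3, 17.2 and 23.5 CPM before adulthood and 90.8 CPM in the adult, Hoxd9 3.095, 5.07 and 8.39 CPM and then 28.1 CPM. Hoxb2 had 33.9, 31.7 and 19.7 CPM and then 3.42 CPM, and Hoxb8 3.91, 3.53 and 3.38 CPM and then 0.0871 CPM. In chondrocyte clusters 4 of 30 members were higher (7.73% of 12834 genes) and 15 lower (8%). Adult levels lay in the same direction as in fibroblasts for Hoxc10 (19.2, 20.6 and 27.7, then 89.2 CPM) and Hoxb2 (19.6, 19.1 and 13.6, then 1.31 CPM), but not for Hoxd9 (4.26, 4.63 and 8.47, then 2.62 CPM). Their Hoxc8 was at 62.7, 84.6, 65.2 and 66.7 CPM, with the adult value within the earlier range.

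In endothelial clusters 5 members had at least 200 UMIs, of which Hoxa5 was at least 2 times higher in the adult (10.3% of 5882 genes were) and 0 were lower (2.58%). Hoxa5 had 4.597, 9.57 and 15.6 CPM in endothelial cells before adulthood and 69.0 CPM in the adult, whereas fibroblasts had 17.1, 17.6 and 14.4 CPM and then 6.66 CPM. Hoxb4 had 54.5 CPM in adult endothelial cells, above its 3 earlier values, and 3.09 CPM in adult fibroblasts, below theirs. By a looser rule with no limit on the fold, an adult value above all earlier ones in endothelial cells and below them in fibroblasts was found for 10 of 22 members with at least 20 UMIs in both classes, where 8.52% of 11647 genes had it: Hoxa4, Hoxa5, Hoxa6, Hoxa7, Hoxb2, Hoxb3, Hoxb4, Hoxb6, Hoxb7 and Hoxb9. The difference between the classes was not tested.

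**Figure D4:**
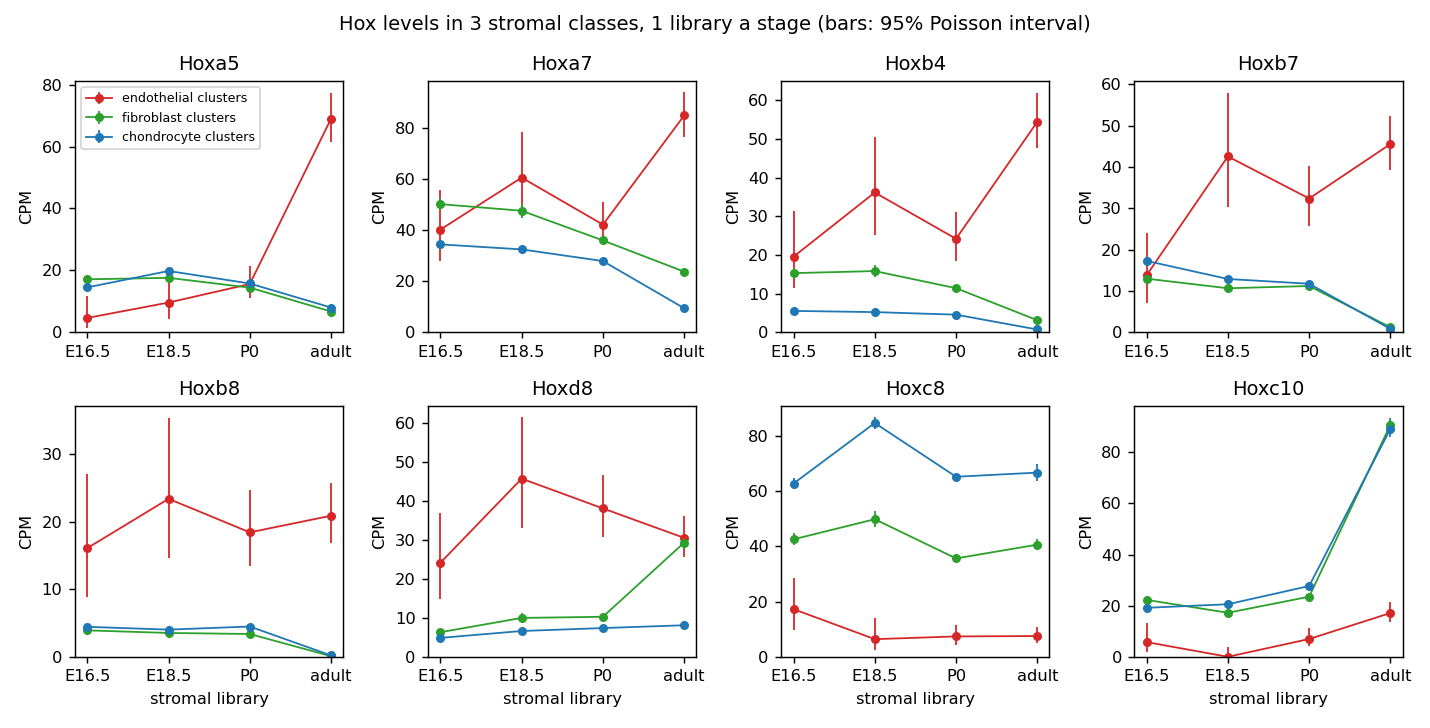
CPM of 8 Hox genes by stage (x axis, 1 library a stage) in fibroblast, chondrocyte and endothelial clusters; bars are exact 95% Poisson intervals. Hoxc10 reaches 90.8 CPM in adult fibroblasts and 89.2 CPM in adult chondrocytes, and Hoxa5 reaches 69.0 CPM in adult endothelial cells while adult fibroblasts are at 6.66 CPM.

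The lists of other position genes were counted in the same way in the adult stroma. Of 10 limb genes 7 were at least 2 times higher and 0 lower, and of 7 axial genes 2 were higher and 1 lower, where 13.3% of all genes were higher and 7.26% lower. Of the genes described here, chosen after their values were seen, Tbx5 did not reach that limit. Pitx1 and Tbx4, transcription factors of the hind limb, had 9.86 to 11.2 and 2.37 to 2.98 CPM in the earlier stromal libraries and 51.2 and 9.39 CPM in the adult one. Tbx5, their counterpart in the forelimb, had 3.13 to 3.74 CPM earlier and 1.58 CPM in the adult. Uncx, a gene of the developing vertebrae, had 2.03 to 2.63 CPM earlier and 0 in the adult, while Meox2 had 30.4 to 44.7 CPM and then 100 CPM. The adult bones did not include the forelimb, and the part of the dissection in the Hox values cannot be told apart from stage.

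**Figure D5:**
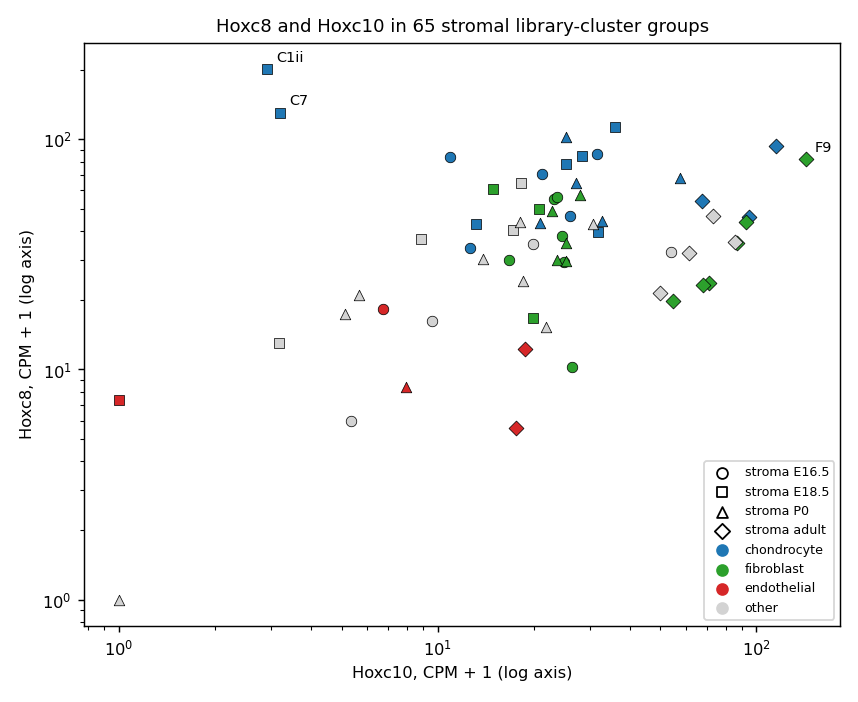
Hoxc8 (y axis) against Hoxc10 (x axis), both as CPM + 1 on log axes, in the 65 stromal groups of 1 library and 1 cluster with at least 50 cells; the shape gives the stage and the colour the class (blue chondrocyte, green fibroblast, red endothelial, grey other). A chondrocyte cluster of E18.5, C1ii, reaches 201 CPM of Hoxc8 at 1.93 CPM of Hoxc10, and adult cluster F9 has 142 CPM of Hoxc10.

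Within stroma, clusters of the same class differed widely in their Hox genes. These levels describe groups of 1 library that had been clustered on the same counts, and they were not tested. At E18.5 the chondrocyte cluster C1ii (328 cells) had 201 CPM of Hoxc8, 71.6 CPM of Hoxa7 and 1.93 CPM of Hoxc10, and 85.4% of its Hox UMIs came from groups 4 to 8. Its neighbour C7 (528 cells) had 130 CPM of Hoxc8 and 2.20 CPM of Hoxc10, whereas C1i (1189 cells) had 83.3 and 27.3 CPM. Among fibroblasts, E16.5 cluster F6 (184 cells) had 110 CPM of Hoxc13 and 101 CPM of Hoxa10, with 85.8% of its Hox UMIs from groups 9 to 13, and E18.5 cluster F3ii (177 cells) had 94.4 CPM of Hoxc13 and 43.4 CPM of Hoxb13. Hoxc13 is among the leading genes of both clusters.

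Hoxd13, the gene of digits and the tail end, was at 62.9 CPM in a P0 cluster without a name (UD4, 75 cells, 57 UMIs), where groups 9 to 13 gave 83.1% of the Hox UMIs. The median over the 65 groups was 0.218 CPM. Schwann cell clusters had 53.0, 52.2 and 54.5% of their Hox UMIs from HoxB at the 3 earlier stages, with Hoxb9 at 64.0, 35.1 and 47.5 CPM. Adult CAR cells (CXCL12-abundant reticular cells, 359 cells), a niche cell of the marrow, had 106 CPM of Hoxa10 and 79.3 CPM of Hoxa9, the highest values of both genes over the 65 groups.

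The adult endothelial clusters also differed from each other. The cluster named SECs (sinusoidal, 194 cells) had 113 CPM of Hoxa5 and 65.8 CPM of Hoxa7, and AECs (arterial, 400 cells) had 35.3 and 99.8 CPM. Hoxb7 was at 24.8 CPM in SECs and 61.5 CPM in AECs, and Hoxb4 at 59.8 and 50.3 CPM.

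Detection of Hox genes in the same single stromal cells was described next. For 325 pairs of 26 genes, the number of cells with both genes was divided by the number that their shares in 10 depth bins of a library give. The median ratio was 1.80, 1.80, 1.64 and 1.03 for pairs within groups 9 to 13, of which 27 of 45 were above 1 in the adult, and 1.33, 1.26, 1.29 and 1.29 for pairs within groups 1 to 8. Pairs with a gene from each side had 0.858, 0.805, 0.820 and 0.874. Pairs of the same cluster had 1.49, 1.49, 1.45 and 1.28. The ratios are a description of sparse counts, and cells of different clusters enter each of them.

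Hox proteins bind DNA with partners of the Pbx, Meis and Pknox families. Of the 9 such genes listed, 5 were lower and 2 higher in HP than in stromal libraries (32% of all genes lower, 25.8% higher), and the median log2 difference was -1.30. Pknox2, 1 of the 5, passed the filter through the stromal sums alone and had to be lower. Pbx3 was lower in HPs (-1.30 ± 0.22, adjusted p = 0.00258), and Pbx4 (3.39 ± 0.47, adjusted p = 0.00109) was higher. Between HSPC clusters and other HPs, Meis1 was higher (1.28 ± 0.29, adjusted p = 0.0313), while Meis2 (-3.34 ± 0.27, adjusted p = 0.00138) and Meis3 (-1.57 ± 0.37, adjusted p = 0.0344) were lower, where 4.5% of all genes were higher and 9.48% lower. Meis1, the partner of Hoxa9, had 34.2, 20.4, 36.1, 33.1 and 21.9 CPM in the HP libraries. Meis2 had 92.2, 44.0, 3.61, 1.15 and 0.405 CPM, with both E16.5 libraries above the later ones.

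In stroma, Meis1, Meis2 and Meis3 were higher in fibroblasts than in chondrocytes (1.26 ± 0.36, 1.47 ± 0.27 and 2.43 ± 0.16). All 3 were lower in endothelial cells than in fibroblasts (by 3.26, 2.45 and 2.93 on the log2 scale), as was Pknox2, while Pbx2 was higher (0.83 ± 0.15). Pbx4 passed the filter through the fibroblast sums alone, so nothing is read from its call.

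Of 25 listed regulators of Hox chromatin, such as the Polycomb and trithorax proteins, 22 were in the table, and 8 were higher and 2 lower in HP than in stromal libraries, where 25.8% of all genes were higher and 32% lower. Ezh2, the methyltransferase of Polycomb complex PRC2, was higher (1.95 ± 0.34, adjusted p = 0.00284). Between HSPC clusters and other HPs, 1 was higher, the Polycomb gene Cbx7 (0.79 ± 0.21, adjusted p = 0.0477), where 4.5% of all genes were higher. In stroma 3 were higher and 4 lower in fibroblasts than in chondrocytes (20.4 and 16.8% of all genes), and 3 higher and 2 lower in endothelial cells than in fibroblasts (14.2 and 17.2%), shares near or below those of all genes.

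Of 10 listed antisense and long noncoding RNAs of the Hox clusters 6 were in the table. Hotairm1, a noncoding RNA of the HoxA cluster, was lower in HPs (-4.15 ± 0.66, adjusted p = 0.00191), as were Hoxd3os1, Hoxb3os and Hotair, while 0 were higher (32% of all genes lower, 25.8% higher). Hoxd3os1 and Hotair passed the filter through the stromal sums alone. Of 4 tested between HSPC clusters and other HPs, 2 were called higher, Hoxb5os and Hoxb3os, where 4.5% of all genes were higher, and both passed the filter through the HSPC sums alone, so no fold is given. In endothelial cells 4 of 5 tested were higher than in fibroblasts, where 14.2% of all genes were higher, among them Hotairm1 (1.52 ± 0.22, adjusted p = 0.00107).

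The 10 limb and 7 axial position genes all passed the filter between HPs and stroma through the stromal sums alone and had to be lower in HPs, so nothing is read from their calls. In fibroblasts, 2 of 10 limb and 3 of 7 axial genes were higher than in chondrocytes (20.4% of all genes) and 1 axial gene was lower (16.8%). In endothelial cells 1 gene of each list was higher than in fibroblasts, and 6 limb and 3 axial genes were lower, where 14.2% of all genes were higher and 17.2% lower.

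The genes most like the most counted members were taken as the 5 non-members with the highest Spearman correlation of CPM over groups of 1 library and 1 cluster with at least 50 cells. For Hoxa9 over 73 HP groups these were Ica1 (rho = 0.81), Tie1 (0.81), Adgrl4 (0.81), Tst (0.80) and Plppr3 (0.80), among 11518 genes. Among members, Hoxa7 had 0.89 and Hoxb4 0.51. For Hoxc8 over 65 stromal groups they were Ikbip (0.82), Fgfrl1 (0.78), P3h4 (0.78), P4ha1 (0.77) and Tvp23b (0.77), among 13128 genes, while Hoxc6 had 0.68 and Hoxc10 0.32. Groups of a library share its depth and preparation, and the values are a description.

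The 5 members with fewer than 200 UMIs were Hoxb1 (61), Hoxd1 (68), Hoxd3 (105), Hoxd4 (20) and Hoxd12 (69). Their highest library levels were between 0.0616 and 0.267 CPM, all in stroma, and HPs held 1 UMI of Hoxb1 and 0 of the others. Exons of Hoxc10 and Hoxc5, of Hoxd3 and Hoxd4, and of Hoxa9 and Mir196b overlap on the same strand, as do those of Hoxd10, Hoxd11, Hoxa2 and Hoxa3 with predicted genes, so that counts of these members are uncertain to the extent that reads were shared or dropped.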

How the data were processed

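Single cells of CD45+ Lineage-Kit+ HPs and CD45-Ter119- stroma were captured with the 10x 3′ v3.1 chemistry and TotalSeq-A antibodies. The authors aligned reads with Cell Ranger 3.1.0 to mm10 and used Seurat 3.1.5 in R 4.0, per the labels and the study's methods. Their filters kept genes seen in at least 30 cells and removed cells with under 300 UMIs, 7.5% or more mitochondrial UMIs or values at or above the 98th percentile. The deposited values are raw UMI counts of mRNA and of 29 antibodies, with the authors' cluster codes for each cell. No doublet caller was run here, and doublets were treated only by the authors' upper limit.

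Counts were summed per library and class, and CPM is the sum over the library or class total. Tests used edgeR 4.0.16 (quasi-likelihood, TMM, filterByExpr, R 4.3.3) over all genes with Benjamini-Hochberg adjustment at 0.05. HP and stroma libraries were compared with stage as a term. Classes of the same libraries were compared with the library as a replicate block, since 1 library gives both sums. Such a block pairs the sums of 1 library and holds no replicate libraries. HSPC clusters were compared between stages with no further term. DESeq2 1.42.0, other size factors, no filter and left-out libraries were alternatives. The scripts were tested on simulated data. Intervals of counts and shares are exact at the 95% level. Antibody counts were turned into CLR values within each library. Descriptions were made in Python 3.11.15 with numpy 2.4.6, scipy 1.17.1 and pandas 2.3.3. Library depths of 13974733 to 194892476 UMIs put the limit of 3 counts between 0.0154 and 0.215 CPM.

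All members were accounted for, in counts, and those with at least 200 UMIs were described by name, except that values of some genes are not reported here; the other named genes are those of lists of cofactors, regulators, noncoding RNAs, limb and axial genes and cell type markers, and the 5 genes most like the most counted member. The naming rule used no measured value, but the members and lists were chosen with earlier results of these data known. A second row named Hoxd4 in the table was kept out.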

Additional observations from a re-analysis of the deposited data

Results flagged for a closer look

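Of 39 groups of libraries examined for a sample far from the others, 10 were flagged, and all 10 were in stroma. Chance flags about 1 in 20, and the same rule flagged 15.3% of all genes in the stromal libraries and 8.49% in the HP libraries. The adult stromal library stood apart for 9 members. It was high for Hoxa9 (30.2 CPM), Hoxa10 (58.1 CPM), Hoxa11 (14.8 CPM), Hoxa13 (3.35 CPM), Hoxc9 (42.7 CPM) and Hoxc10 (84.9 CPM), and low for Hoxa2 (0.893 CPM), Hoxb6 (0.969 CPM) and Hoxb8 (1.14 CPM). The E18.5 stromal library was high for Hoxc8 (73.0 CPM).

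For 10 members the adult endothelial value lay above and the adult fibroblast value below all 3 earlier values of the same class, as for 8.52% of all genes, and the difference between the classes was not tested. Adult endothelial levels were 6.57 CPM for Hoxa4, 69.0 CPM for Hoxa5, 4.22 CPM for Hoxa6 and 85.0 CPM for Hoxa7. In the HoxB cluster they were 19.5 CPM for Hoxb2, 23.5 CPM for Hoxb3, 54.5 CPM for Hoxb4, 12.0 CPM for Hoxb6, 45.5 CPM for Hoxb7 and 23.9 CPM for Hoxb9. Some of these rest on few counts or a small gap. Hoxa4 and Hoxa6 had 37 and 24 endothelial UMIs in all, and Hoxb7 was at 42.5 CPM in endothelial cells at E18.5.

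The table held a second row named Hoxd4 that no comparison used, with 31 UMIs in the stromal libraries and 0 in the HP libraries.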

How the results depend on the processing

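The count of members lower in HPs than in stroma was 36 and lay between 30 and 37 when 1 library was left out. Members called higher in HSPC clusters numbered 10 with the library as a replicate block, 0 with no replicate block, and 5 to 10 without 1 library. For the antibody gate, 2 members were called, against 4 with DESeq2, 4 with no filter, 5 with the CD48-negative gate, 0 at a CLR level of 0.75, 5 at a CLR level of 1.5, 0 with no replicate block, and 0 to 3 without 1 library (0 without E18.5 or P0, 1 without the adult). Fibroblasts and chondrocytes differed in 8 members, against 13 with DESeq2, 4 with no replicate block and 2 to 19 without 1 library. Without the adult fibroblast cluster F9 and the P0 cluster F3ii, 8 members were higher in fibroblasts and 1 lower. Endothelial cells and fibroblasts differed in 18, against 8 with no replicate block and 11 to 19 without 1 library. Between stages, DESeq2 called 0 at E18.5 and 0 at P0. At P0 the count was also 0 with no filter and 0 to 1 without 1 library. For the adult it was 1 with the other size factors, 1 with only the deepest cell of a shared barcode, 1 without HSPC4, and 0 to 1 without 1 library. The numbers of all genes called changed with these settings too. The settings on shared barcodes, on HSPC4 and on clusters F9 and F3ii were chosen after seeing the data, and the cause of these changes was not tested. Over single members called in the main fits, 664 values kept their direction and, where there was a test, their side of the threshold. A further 97 kept the direction only, 3 moved as values without a test, and 0 reversed. Many of these members had passed the filter through 1 side alone. Their direction was fixed in advance, and the 0 says nothing about them. The stromal libraries held no blood clusters to remove. Depth limits the E16.5 HSPC values, since the 2 libraries held 33 and 165 such cells.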
